A study of Mus musculus with 11 samples.

Results

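The genes described here are 35 components of the contractile apparatus and cytoskeleton of smooth muscle: myosin and its light chains, the enzymes that switch the light chain on and off, the actins and the proteins bound along them, intermediate filaments, proteins of dense bodies and adhesion plaques, a calcium store protein and the transcriptional regulators of the set. They were taken from a list of gene symbols, and each was read from the probe set of that single symbol with the highest mean over all 11 arrays. All 35 were found among the 18193 named genes on the array, and all 35 were among the 13285 genes tested, which had to lie above the array's median on at least 2 arrays. Every level below is a log2 intensity and every difference is a difference of log2 intensities with its standard error, so a difference of 1 is a 2-fold change. Calls needed a limma adjusted p below 0.05 together with a change of at least 2-fold.

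The 4 groups came from mice of 2 strains, with 1 array per sample. The tsA58 line (2xSCS70, 3 arrays) was derived from the stomach of H-2Kb-tsA58 mice, whose transgene encodes a heat-sensitive form of the SV40 large T antigen driven by the interferon-responsive H-2Kb promoter. It was kept at 39.5 °C in a proliferation medium made for neural stem cells, with no interferon-gamma added. The C57BL/6J line (2xSCS2F10, 3 arrays) was derived from wild-type mice and was kept at 37 °C in the same base medium with 5% chick embryo extract, a supplement that the labels name for this line and not for the other. Both are described as clonal progenitor lines for the pacemaker cells of the gut wall, called interstitial cells of Cajal (ICC), so each line stands for 1 clone. The source tissue was the gastric tunica muscularis, the muscle coat of the stomach, of H-2Kb-tsA58 mice (3 arrays), which carry the transgene too, and of C57BL/6J mice (2 arrays). Strain, temperature, supplement and clone differ together between the lines and cannot be told apart.

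Smooth muscle shortens when myosin filaments pull on actin filaments that are anchored at dense bodies inside the cell and at adhesion plaques on its membrane. Calcium and calmodulin activate myosin light chain kinase, which phosphorylates the regulatory light chain, and a myosin phosphatase with its own inhibitor reverses that step. Many genes of the apparatus are switched on by serum response factor, which binds a short element called the CArG box, together with its muscle-restricted partner myocardin. In the wall of the stomach these proteins mark the mature muscle cells, while several relatives of the same families serve the cytoskeleton of nearly all cells.

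Replicate arrays correlated at 0.956 to 0.988 in the tsA58 line, 0.986 to 0.991 in the C57BL/6J line, 0.964 to 0.976 in tsA58 tissue and 0.982 in C57BL/6J tissue. These correlations run over probe sets, not over independent replicates. The lowest values in the tsA58 line all involved replicate 3, and values that leaving it out moved by over 1.5-fold are given both ways. Nothing states that the arrays of a group came from separate cultures or animals, so the p-values measure the spread between these arrays, which may be technical. The log2 ratio of the 3′ to the 5′ actin control probe sets, a measure of RNA integrity and amplification, was 0.47 ± 0.40 in the tsA58 line, 1.02 ± 0.02 in the C57BL/6J line, 0.44 ± 0.03 in tsA58 tissue and 0.93 ± 0.12 in C57BL/6J tissue (SD). It differed with strain, and its part in the differences between strains cannot be told apart from strain itself. In a tissue made of several cell types, fewer cells of a type and less RNA per cell cannot be told apart either.

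Since serum response factor acts through the CArG box, the promoters of the genes were searched for it. The RefSeq table of mouse promoters (build GRCm38.p6) held 31 of the 35 genes in 37 windows, each running from 250 bases before a gene's start to 50 bases after it. A CArG box, read the same on both strands, stood in 8 of the 37 windows (21.6%) and in 535 of all 32851 windows in the table (1.63%). It was found at Myl9, Myl6, Cnn2, Vcl, Ldb3, Fhl1 and Srf. The windows at Ldb3 overlapped and held the same box, which was thus counted in each. Overlap was not removed among all windows either. A looser form with 1 inner base C or G stood in 4 windows (10.8%, against 8.50% of all windows). The MCAT element (CATTCC, searched on both strands), through which TEAD factors act, stood in 10 (27.0%, against 14.7% of all windows). In 0 of the 37 windows did a CArG box and an MCAT element share bases. These are matches of letters, and a window without a match says only that the letters are not in it. The 5 windows below are shown because they hold a box and belong to genes that ended in different places: the levels of Myl9, Srf and Fhl1 were lower in both lines than in tissue, and those of Vcl and Cnn2 were not called in either line. Capitals mark the CArG boxes. The box began 161 bases before the start in Myl9 (chr2:156775214-156775513, plus strand), 82 and 62 bases before it in Srf (chr17:46556113-46556412, minus strand), 102 in Fhl1 (chrX:56779433-56779732, plus strand), 227 in Vcl (chr14:20929148-20929447, plus strand) and 56 in Cnn2 (chr10:79988350-79988649, plus strand).
Myl9: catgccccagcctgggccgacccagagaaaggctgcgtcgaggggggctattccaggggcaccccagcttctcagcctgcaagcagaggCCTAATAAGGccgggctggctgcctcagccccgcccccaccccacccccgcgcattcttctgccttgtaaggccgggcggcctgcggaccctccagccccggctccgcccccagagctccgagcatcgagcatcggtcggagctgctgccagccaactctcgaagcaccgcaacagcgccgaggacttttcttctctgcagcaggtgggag
Srf: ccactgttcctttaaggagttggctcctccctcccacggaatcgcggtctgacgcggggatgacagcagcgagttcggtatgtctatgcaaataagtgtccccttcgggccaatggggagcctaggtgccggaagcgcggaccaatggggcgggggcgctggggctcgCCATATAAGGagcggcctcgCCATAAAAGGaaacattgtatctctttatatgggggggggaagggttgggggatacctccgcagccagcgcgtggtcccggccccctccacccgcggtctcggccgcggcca
Fhl1: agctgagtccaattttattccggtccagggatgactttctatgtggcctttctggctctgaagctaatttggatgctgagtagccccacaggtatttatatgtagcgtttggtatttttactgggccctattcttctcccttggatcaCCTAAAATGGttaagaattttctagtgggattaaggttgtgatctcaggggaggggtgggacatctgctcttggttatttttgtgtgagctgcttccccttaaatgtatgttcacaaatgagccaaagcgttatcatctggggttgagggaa
Vcl: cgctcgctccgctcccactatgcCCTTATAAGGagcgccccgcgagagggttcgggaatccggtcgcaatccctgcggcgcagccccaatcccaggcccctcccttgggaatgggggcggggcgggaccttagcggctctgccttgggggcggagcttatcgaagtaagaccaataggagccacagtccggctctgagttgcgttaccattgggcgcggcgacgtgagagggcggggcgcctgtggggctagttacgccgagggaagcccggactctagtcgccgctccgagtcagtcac
Cnn2: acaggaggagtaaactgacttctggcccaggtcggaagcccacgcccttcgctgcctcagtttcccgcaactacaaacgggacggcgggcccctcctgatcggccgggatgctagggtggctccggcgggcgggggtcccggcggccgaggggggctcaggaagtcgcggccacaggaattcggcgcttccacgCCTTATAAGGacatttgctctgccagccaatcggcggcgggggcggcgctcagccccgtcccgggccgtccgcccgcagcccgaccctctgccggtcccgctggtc

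The lines were each compared with the tissue of their own strain to see which parts of the contractile apparatus a cultured ICC progenitor shares with the muscle coat. In the tsA58 line, 30 of the 35 genes were lower than in tsA58 tissue and 1 was higher (85.7% and 2.86%). Over all genes tested, 18.9% were lower and 12.8% higher. The median difference of the 35 genes was -3.55, and that of all genes -0.00013. In the C57BL/6J line, 22 were lower than in C57BL/6J tissue and 1 was higher (62.9% and 2.86%), where 16.6% of all genes were lower and 17.5% higher. There the median of the 35 was -2.03, against 0.12 for all genes. All 22 genes lower in the C57BL/6J line were among the 30 lower in the tsA58 line. The tropomyosin gene Tpm4 was higher in both lines, and Cnn2, Cnn3, Actn1 and Vcl were called in neither. With arrays centred on the hybridisation controls, which moved the median of all genes by 0.60 and 1.23, the tsA58 line had 24 lower and 1 higher, and the C57BL/6J line 15 lower and 3 higher. Of all 13285 genes, that centring made 1151 lower and 1821 higher in tsA58, and 723 lower and 5148 higher in C57BL/6J.

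All 35 genes lay above the array median, which was 4.66 to 4.84, on every array of both tissues. On every array of the tsA58 line, 10 lay at or below it: Myh11, Myl9, Ppp1r14a, Actg2, Lmod1, Synpo2, Pgm5, Pdlim3, Casq2 and Myocd. The C57BL/6J line also had 10 such genes, with Synm and Ldb3 in place of Myl9 and Lmod1. No detection call came with the deposited values. Signal that low cannot be told from background on these arrays, and a difference that ends there understates the change. The 8 genes at that level in both lines passed the filter through the tissue arrays alone, so they had to be lower in the lines. They are Myh11, Ppp1r14a, Actg2, Synpo2, Pgm5, Pdlim3, Casq2 and Myocd, and their line-tissue differences are given below as bounds on the size, with no p-value. Of the other 27 genes, 22 were lower and 1 higher in the tsA58 line (median -2.63), and 14 were lower and 1 higher in the C57BL/6J line (median -1.44). Those 27 include Lmod1 and Ldb3. Lmod1 lay above the median on C57BL/6J line replicate 3 alone among the line arrays (4.98), and Ldb3 on tsA58 line replicate 3 alone (5.21). Both needed tissue arrays to pass the filter, so their lower line levels were largely fixed in advance too. The ranges of line and tissue did not overlap, with the line lower, for 30 genes in tsA58 and 29 in C57BL/6J of the 35, while 28.2% and 33.2% of all genes did so. The line was the higher one, without overlap, for 1 gene in tsA58 and 3 in C57BL/6J, against 23.8% and 41.9% of all genes.

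**Figure D1:**
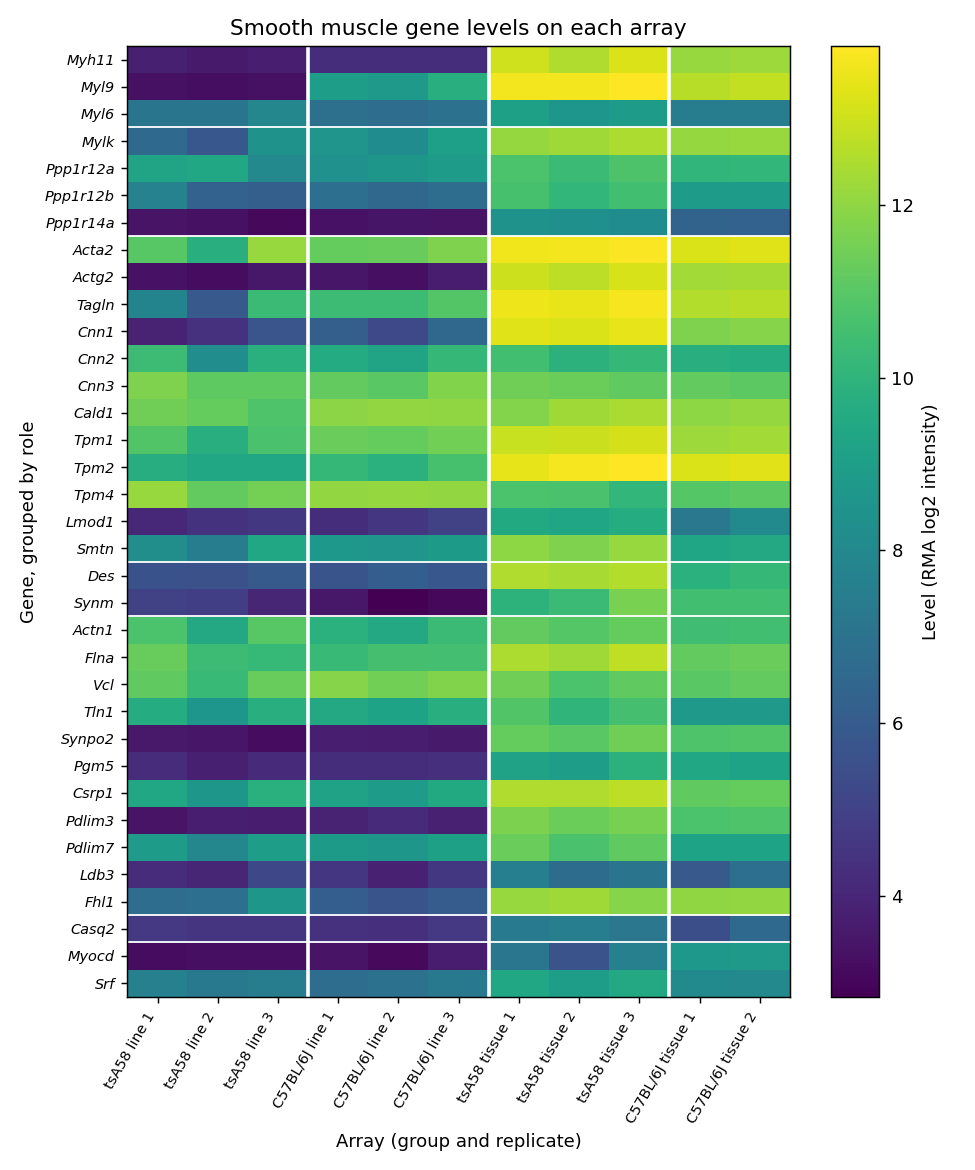
Log2 intensity (colour) of each of the 35 genes (rows, grouped by role) on each of the 11 arrays (columns: tsA58 line, C57BL/6J line, tsA58 tissue, C57BL/6J tissue). The rows of Myh11, Actg2, Synpo2 and Pdlim3 are dark in both lines (3.18 to 4.27) and bright in both tissues (10.72 to 13.25), Myl9 is dark in the tsA58 line alone, and the rows of Cnn2, Cnn3 and Vcl keep a similar colour throughout.

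Myosin itself was close to background in both lines. Myh11, which encodes the smooth muscle myosin heavy chain, read 3.81, 3.62 and 3.76 on the tsA58 line arrays, against 13.04, 12.54 and 13.25 in tsA58 tissue. It read 4.26, 4.27 and 4.27 in the C57BL/6J line, against 12.15 and 12.22 in C57BL/6J tissue. All line arrays lay far below all tissue arrays, and the differences, bounded by background, were -9.21 ± 0.19 in tsA58 and -7.92 ± 0.21 in C57BL/6J. Its second probe set gave -3.37 and -1.71.

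Myl9, the regulatory light chain that the kinase phosphorylates, set the lines apart. Its levels were 3.31, 3.25 and 3.34 in the tsA58 line, against 13.66, 13.64 and 13.82 in tsA58 tissue. In the C57BL/6J line they were 8.94, 8.73 and 9.72, against 12.66 and 12.83 in C57BL/6J tissue. The tsA58 line was thus at background where the C57BL/6J line kept a clear signal, and the ranges of all 4 groups were separate. The differences were -10.40 ± 0.23 in tsA58 (adjusted p = 3.98e-10) and -3.62 ± 0.26 in C57BL/6J (adjusted p = 2.98e-06). Myl6, the essential light chain that smooth and non-muscle myosins share, read 7.09, 7.11 and 7.92 in the tsA58 line, against 9.09, 8.63 and 8.87 in tsA58 tissue. It was lower there by -1.49 ± 0.23 (adjusted p = 0.000461). Its C57BL/6J line levels were 6.90, 6.76 and 6.98, against 7.46 and 7.46 in tissue, and the difference of -0.57 ± 0.26 was not called (adjusted p = 0.0961).

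All 4 genes of the enzymes that act on the light chain were lower in both lines. Mylk, the myosin light chain kinase, read 6.58, 5.81 and 8.44 in the tsA58 line, against 12.10, 12.27 and 12.47 in tsA58 tissue. Its C57BL/6J line levels were 8.59, 8.18 and 9.03, against 12.12 and 12.15 in C57BL/6J tissue. Replicate 3 of the tsA58 line lay within the range of the C57BL/6J line, and the other 2 arrays lay below it. The differences from tissue were -5.34 ± 0.53 in tsA58 (adjusted p = 1.85e-05, and -6.09 without line replicate 3) and -3.54 ± 0.59 in C57BL/6J (adjusted p = 0.000674).

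Ppp1r14a, known as CPI-17, the inhibitor of the myosin phosphatase, was at 3.41, 3.34 and 3.08 in the tsA58 line, against 8.45, 8.34 and 8.18 in tsA58 tissue. It was at 3.37, 3.47 and 3.40 in the C57BL/6J line, against 6.34 and 6.28 in C57BL/6J tissue. Both lines were at background, the tissues differed in level, and the differences were -5.05 ± 0.16 and -2.90 ± 0.18. Ppp1r12a, the myosin-targeting subunit of the phosphatase found in most cells, was lower by -1.74 ± 0.33 in the tsA58 line (levels 8.0 to 9.38, against 10.35 to 10.76 in tissue). In the C57BL/6J line it was lower by -1.44 ± 0.37 (8.41 to 8.93, against 10.07 to 10.14), and leaving out replicate 2 of C57BL/6J tissue ended that call (adjusted p = 0.0541). Its muscle-enriched relative Ppp1r12b was lower by -3.70 ± 0.35 in the tsA58 line (6.16 to 7.71, against 10.14 to 10.63) and by -2.20 ± 0.39 in the C57BL/6J line (6.53 to 6.86, against 8.90 to 8.93). The probe sets of Ppp1r12b disagreed: its 3 others gave 0.12, -1.0 and -0.22 in tsA58 and 0.08, -3.57 and 0.37 in C57BL/6J.

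Of the 12 genes of actin filaments and the proteins bound along them, 9 were lower and 1 was higher in the tsA58 line, and 5 were lower and 1 was higher in the C57BL/6J line. Actg2, the gamma-actin typical of visceral muscle, read 3.37, 3.22 and 3.53 in the tsA58 line, against 13.02, 12.76 and 13.18 in tsA58 tissue. It read 3.49, 3.29 and 3.73 in the C57BL/6J line, against 12.30 and 12.37 in C57BL/6J tissue. No line array lay above its median, and the differences were -9.61 ± 0.18 and -8.83 ± 0.20.

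Acta2, the alpha-actin that vascular muscle and activated fibroblasts also make, was strongly detected in the lines by the probe set used here and not by the other 2, whose line means of 3.49 to 3.85 lay below the array median. Its levels by the first were 10.99, 9.72 and 12.13 in the tsA58 line, against 13.62, 13.66 and 13.78 in tsA58 tissue. The C57BL/6J line had 11.24, 11.28 and 11.71, against 13.23 and 13.30 in C57BL/6J tissue. Every line array was below every tissue array, and the differences were -2.74 ± 0.46 (adjusted p = 0.000712) and -1.86 ± 0.51 (adjusted p = 0.0127). The tsA58 value was -2.13 without line replicate 2 and -3.33 without line replicate 3. Leaving out either C57BL/6J tissue array ended the C57BL/6J call, at adjusted p values of 0.0608 and 0.0701. The probe set used for Acta2 carries the suffix that the array maker gives to sets whose probes match more than 1 transcript, so a share of the signal may come from other actins, which was not tested. Its other probe sets gave -6.58 and -2.30 in tsA58 and -4.43 and -0.12 in C57BL/6J.

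Tagln encodes transgelin, or SM22, an actin-binding protein that appears early in the muscle programme. It read 7.80, 5.90 and 10.32 in the tsA58 line, against 13.58, 13.49 and 13.69 in tsA58 tissue. It read 10.40, 10.38 and 10.89 in the C57BL/6J line, against 12.58 and 12.67 in C57BL/6J tissue. The tsA58 line arrays spanned 4.41, the widest range of any of the 35 genes in any group, and all of them lay below the C57BL/6J line. The difference from tissue was -5.58 ± 0.81 in tsA58 (adjusted p = 0.000274), and it was -4.53 without line replicate 2 and -6.73 without line replicate 3. In C57BL/6J it was -2.07 ± 0.90 and was not called (adjusted p = 0.0844), although the ranges did not overlap. That standard error includes the spread of the tsA58 line, since all groups share 1 estimate.

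The calponins, which bind actin and restrain the myosin motor, divided by isoform. Cnn1, the smooth muscle form, was at 3.87, 4.40 and 5.72 in the tsA58 line, against 13.30, 13.22 and 13.43 in tsA58 tissue. It was at 6.18, 5.25 and 6.54 in the C57BL/6J line, against 11.71 and 11.85 in C57BL/6J tissue. The differences were -8.65 ± 0.44 (adjusted p = 1.06e-07) and -5.79 ± 0.49 (adjusted p = 8.42e-06). On tsA58 line replicates 1 and 2 Cnn1 lay below the array median, so background limits the size of its tsA58 difference. Cnn2, a form found in many cell types, read 10.40, 8.22 and 9.82 in the tsA58 line, against 10.49, 9.89 and 10.16 in tissue, and 9.59, 9.25 and 10.15 in the C57BL/6J line, against 9.77 and 9.66 in tissue. Its ranges overlapped in both strains, and neither difference was called (-0.70 ± 0.47, adjusted p = 0.244, and -0.05 ± 0.52, adjusted p = 0.945). The tsA58 value was -0.071 without line replicate 2. Cnn3, the acidic and mostly non-muscle form, was high on all arrays, at 11.10 to 11.72 in the tsA58 line, against 11.16 to 11.46 in tissue. It was at 11 to 11.74 in the C57BL/6J line, against 11.07 to 11.22 in tissue. Its differences of -0.02 ± 0.24 and 0.17 ± 0.26 were not called (adjusted p = 0.947 and 0.635). Its direction turned under some of the alternatives tried. The other probe sets of Cnn3 gave -0.14, -0.13, -0.14, -0.09 and -0.19 in tsA58. In C57BL/6J they gave 1.13, 0.10, -0.03, 0.29 and 0.36.

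Cald1, or caldesmon, which binds actin and myosin in muscle and other cells through different splice forms, read 11.47, 11.23 and 10.81 in the tsA58 line, against 11.82, 12.27 and 12.45 in tsA58 tissue. It was lower there by -1.01 ± 0.21 (adjusted p = 0.00297), just past the 2-fold limit, and the call ended without tsA58 line replicate 3 (-0.83), tsA58 tissue replicate 2 (-0.96) or replicate 3 (-0.88). The C57BL/6J line read 11.94, 12.06 and 12.01, against 11.98 and 12.09 in tissue. That difference was -0.03 ± 0.24 and was not called (adjusted p = 0.922). Other probe sets of Cald1 above the filter disagreed, at -1.24, -0.78 and 1.11 in tsA58 and -0.35, -2.22 and -1.59 in C57BL/6J.

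Tropomyosins lie along the actin filament and gate the access of myosin. Tpm2, the beta form typical of muscle, was at 9.70, 9.40 and 9.42 in the tsA58 line, against 13.43, 13.69 and 13.84 in tsA58 tissue. It was at 10.16, 9.86 and 10.65 in the C57BL/6J line, against 13.20 and 13.33 in C57BL/6J tissue. The differences were -4.15 ± 0.22 (adjusted p = 1.47e-07) and -3.04 ± 0.24 (adjusted p = 5.89e-06), although 1 of its 3 other probe sets gave 0.60 in C57BL/6J. Tpm1, the alpha form, read 10.84, 9.73 and 10.69 in the tsA58 line, against 12.91, 12.94 and 13.12 in tissue, and was lower by -2.57 ± 0.26 (adjusted p = 2.2e-05). The C57BL/6J line read 11.31, 11.23 and 11.48, against 12.24 and 12.32. That difference, -0.94 ± 0.29, passed the p threshold (adjusted p = 0.0215) and stayed under 2-fold, so it was not called. Other probe sets of Tpm1 above the filter gave -2.74 and 0.27 in tsA58, and -0.67 and -3.65 in C57BL/6J.

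Tpm4, a tropomyosin of the non-muscle cytoskeleton, was the 1 gene of the 35 that was higher in the lines. It read 12.14, 11.20 and 11.55 in the tsA58 line, against 10.71, 10.67 and 10.12 in tsA58 tissue. The C57BL/6J line had 12.06, 12.11 and 12.07, against 10.93 and 11.07 in C57BL/6J tissue. No line array overlapped the tissue of its strain, and the differences were 1.13 ± 0.25 (adjusted p = 0.00352) and 1.08 ± 0.28 (adjusted p = 0.00849). Both lay near the 2-fold limit. The tsA58 call ended without line replicate 1 (0.88) or tissue replicate 3 (0.94), and the C57BL/6J call without tissue replicate 1 (1.01, adjusted p = 0.0624).

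Lmod1, leiomodin, which nucleates actin filaments in smooth muscle, read 4.10, 4.43 and 4.63 in the tsA58 line, against 9.51, 9.36 and 9.67 in tsA58 tissue. It read 4.27, 4.59 and 4.98 in the C57BL/6J line, against 7.25 and 8.04 in C57BL/6J tissue. The lines overlapped near background, while the tissues did not overlap. The differences, bounded by background, were -5.13 ± 0.26 and -3.03 ± 0.29. Smtn, or smoothelin, a protein of fully differentiated contractile cells, was at 8.26, 7.44 and 9.43 in the tsA58 line, against 11.95, 11.73 and 12.14 in tsA58 tissue. It was lower there by -3.56 ± 0.39 (adjusted p = 3.99e-05). In the C57BL/6J line it was at 8.72, 8.58 and 8.85, against 9.34 and 9.46 in C57BL/6J tissue, a difference of -0.68 ± 0.44 that was not called (adjusted p = 0.231).

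Both intermediate filament genes were lower in both lines. Des, which encodes desmin, the main filament protein of muscle, read 5.59, 5.55 and 5.94 in the tsA58 line, against 12.52, 12.39 and 12.58 in tsA58 tissue. It read 5.71, 6.12 and 5.82 in the C57BL/6J line, against 9.86 and 10.18 in C57BL/6J tissue. Lines of both strains met at one low level, and the differences were -6.80 ± 0.18 (adjusted p = 1.24e-09) and -4.14 ± 0.20 (adjusted p = 2.17e-07). The second probe set of Des gave -0.76 and -0.13. Synm, or synemin, which links desmin filaments to the membrane, read 4.94, 4.89 and 4.02 in the tsA58 line, against 9.93, 10.33 and 11.61 in tsA58 tissue. It read 3.53, 2.83 and 3.07 in the C57BL/6J line, against 10.52 and 10.53 in C57BL/6J tissue. The differences were -6.01 ± 0.41 (adjusted p = 1.09e-06) and -7.38 ± 0.46 (adjusted p = 1.02e-06).

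Of the 11 genes of dense bodies and adhesion plaques, 9 fell in tsA58 and 6 in C57BL/6J, each against tissue, and 0 were higher in either line. Synpo2, or myopodin, an actin bundling protein, read 3.57, 3.50 and 3.18 in the tsA58 line, against 11.24, 11.01 and 11.44 in tsA58 tissue. It read 3.74, 3.66 and 3.63 in the C57BL/6J line, against 10.82 and 10.86 in C57BL/6J tissue. Its differences were -7.81 ± 0.17 and -7.16 ± 0.19, and its 3 other probe sets had the same sign in both strains.

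Pdlim3, or ALP, a PDZ and LIM protein that binds alpha-actinin, was at 3.41, 3.77 and 3.70 in the tsA58 line, against 11.69, 11.38 and 11.57 in tsA58 tissue. It was at 3.95, 4.20 and 3.85 in the C57BL/6J line, against 10.72 and 10.80 in C57BL/6J tissue. Both lines were at background, and the differences were -7.92 ± 0.17 and -6.76 ± 0.19. Pgm5, or aciculin, a plaque protein related to phosphoglucomutase without its activity, was lower by -5.28 ± 0.23 in tsA58 (3.82 to 4.22, against 9.01 to 9.89) and by -5.02 ± 0.26 in C57BL/6J (4.26 to 4.31, against 9.22 to 9.38). Ldb3, or cypher, a further PDZ and LIM protein best known from striated muscle, was lower by -2.63 ± 0.39 (3.99 to 5.21, against 6.71 to 7.58) and by -2.03 ± 0.43 (3.83 to 4.63, against 5.91 to 6.86). With the mean of all 3 probe sets of Ldb3 both calls ended, at -0.85 and -0.61.

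Fhl1, a LIM-only protein of muscle, read 6.77, 6.87 and 8.67 in the tsA58 line, against 12.12, 12.29 and 11.85 in tsA58 tissue. It read 6.14, 5.69 and 6.05 in the C57BL/6J line, against 12.03 and 12.05 in C57BL/6J tissue. Tissue levels of the strains overlapped, every tsA58 line array was above the C57BL/6J line, and the differences were -4.65 ± 0.42 (adjusted p = 9.53e-06, and -5.27 without tsA58 line replicate 3) and -6.08 ± 0.47 (adjusted p = 4.81e-06). Csrp1, a LIM protein that binds alpha-actinin and zyxin, was lower by -3.32 ± 0.28 in tsA58 (8.64 to 9.80, against 12.53 to 12.73) and by -2.02 ± 0.31 in C57BL/6J (8.86 to 9.50, against 11.16 to 11.22).

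Flna, filamin A, which cross-links actin, was lower by -1.91 ± 0.27 in the tsA58 line (10.20 to 11.27, against 12.29 to 12.79 in tissue; adjusted p = 0.000226). Its difference of -0.77 ± 0.30 in the C57BL/6J line was not called (adjusted p = 0.0576). Pdlim7, or enigma, was lower by -2.43 ± 0.29 in tsA58 (7.93 to 9.0, against 10.67 to 11.32), and its difference of -0.34 ± 0.32 in C57BL/6J was not called (adjusted p = 0.415). Tln1, talin, which couples integrins to actin, was lower by -1.15 ± 0.32 in tsA58 (8.62 to 9.75, against 10.02 to 10.86; adjusted p = 0.0118). That call ended without tsA58 line replicate 2 (-0.79) or tsA58 tissue replicate 1 (-0.97). In C57BL/6J the line was above tissue for Tln1 (9.21 to 9.73, against 8.74 to 8.75), but the difference of 0.73 ± 0.35 was not called (adjusted p = 0.115), and a second probe set gave -2.14.

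Vcl, or vinculin, a talin partner, was high on all arrays. It read 11.13, 10.24 and 11.27 in the tsA58 line, against 11.44, 10.73 and 11.15 in tsA58 tissue, and 11.84, 11.50 and 11.76 in the C57BL/6J line, against 11.03 and 11.22 in C57BL/6J tissue. Its differences of -0.23 ± 0.28 and 0.58 ± 0.31 were not called (adjusted p = 0.532 and 0.158), although a second probe set gave 2.85 in C57BL/6J. Actn1, the alpha-actinin that cross-links actin in most cells, gave -0.75 ± 0.36 and -0.60 ± 0.40, which were not called (adjusted p = 0.108 and 0.246).

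Casq2, a calsequestrin that binds calcium in the store of cardiac and smooth muscle, read 4.64, 4.47 and 4.52 in the tsA58 line, against 7.31, 7.56 and 7.21 in tsA58 tissue. It read 4.39, 4.34 and 4.66 in the C57BL/6J line, against 5.48 and 6.62 in C57BL/6J tissue. It was lower in both, by -2.82 ± 0.26 and -1.58 ± 0.29.

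Both regulators were lower in both lines. Myocd, myocardin, read 3.19, 3.29 and 3.29 in the tsA58 line, against 7.17, 5.64 and 7.63 in tsA58 tissue. It read 3.41, 3.12 and 3.69 in the C57BL/6J line, against 8.71 and 8.79 in C57BL/6J tissue. No line array lay above its median, and the differences were -3.55 ± 0.41 (-4.14 without tsA58 tissue replicate 2) and -5.34 ± 0.46. Its second probe set gave -0.30 and -0.52. Srf, serum response factor, remained above the array median everywhere, at 7.61, 7.30 and 7.45 in the tsA58 line, against 9.44, 8.95 and 9.48 in tsA58 tissue. It was at 6.77, 6.94 and 7.30 in the C57BL/6J line, against 8.04 and 8.01 in C57BL/6J tissue. The differences were -1.84 ± 0.20 (adjusted p = 4.3e-05) and -1.02 ± 0.23 (adjusted p = 0.00403). The second lay at the 2-fold limit and fell below it without C57BL/6J line replicate 1 (-0.90) or 2 (-0.99). Centred on the hybridisation controls it turned to 0.21, and a second probe set of Srf gave 0.79 in C57BL/6J.

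**Figure D2:**
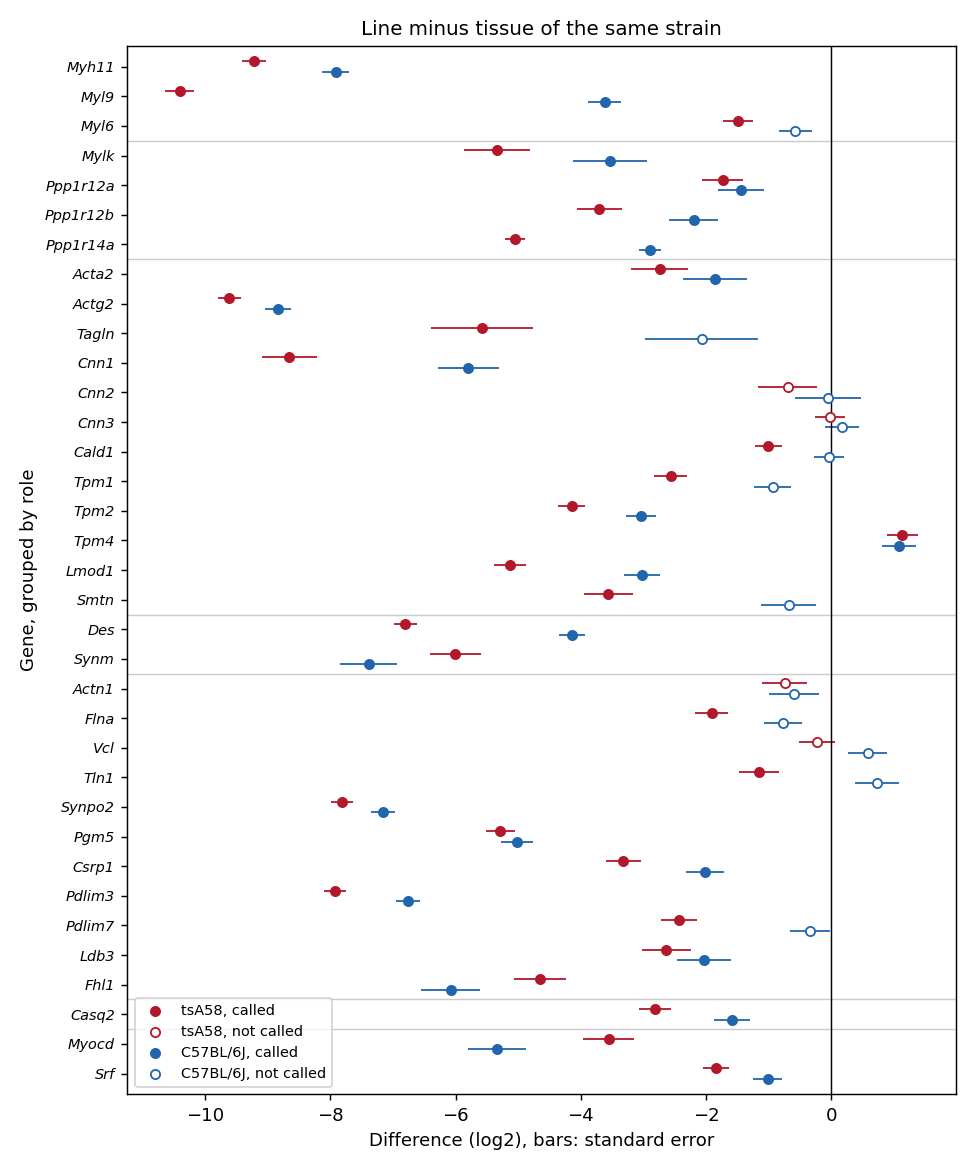
Difference in log2 intensity between each line and the tissue of its strain (horizontal axis, bars are the standard error of the limma fit) for the 35 genes grouped by role, in tsA58 (red) and C57BL/6J (blue). Filled points were called; Myl9 lies at -10.40 in tsA58 and -3.62 in C57BL/6J, and Tpm4 is the 1 gene called to the right of 0 in both.

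Within families the muscle-typical gene was compared with its broader relative on the same arrays, as the difference of their log2 levels, line minus tissue, averaged over the strains. The 9 pairs were chosen after the levels had been seen, so the values are a description and carry no test. Actg2 moved against Acta2 by -6.92 (-6.87 in tsA58 and -6.98 in C57BL/6J), with Acta2 read by the probe set that detected it in the lines. Cnn1 moved against Cnn2 by -6.85 and against Cnn3 by -7.30. Tpm2 moved against Tpm1 by -1.84, Tpm1 against Tpm4 by -2.86 and Tpm2 against Tpm4 by -4.70. Pdlim3 moved against Pdlim7 by -5.95. Actg2 and Pdlim3 were at background in both lines, which limits the size of their values. Cnn1 lay below the array median on tsA58 line replicates 1 and 2, which limits its tsA58 values in part. Ppp1r12b moved against Ppp1r12a by -1.36, a shift that turned to 0.23 when all probe sets of each gene were averaged. Cnn3 moved against Cnn2 by 0.45, with 0.19 to 0.58 when 1 array was left out. A ratio within an array shows unequal change and does not say that one of the genes stayed the same.

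**Figure D3:**
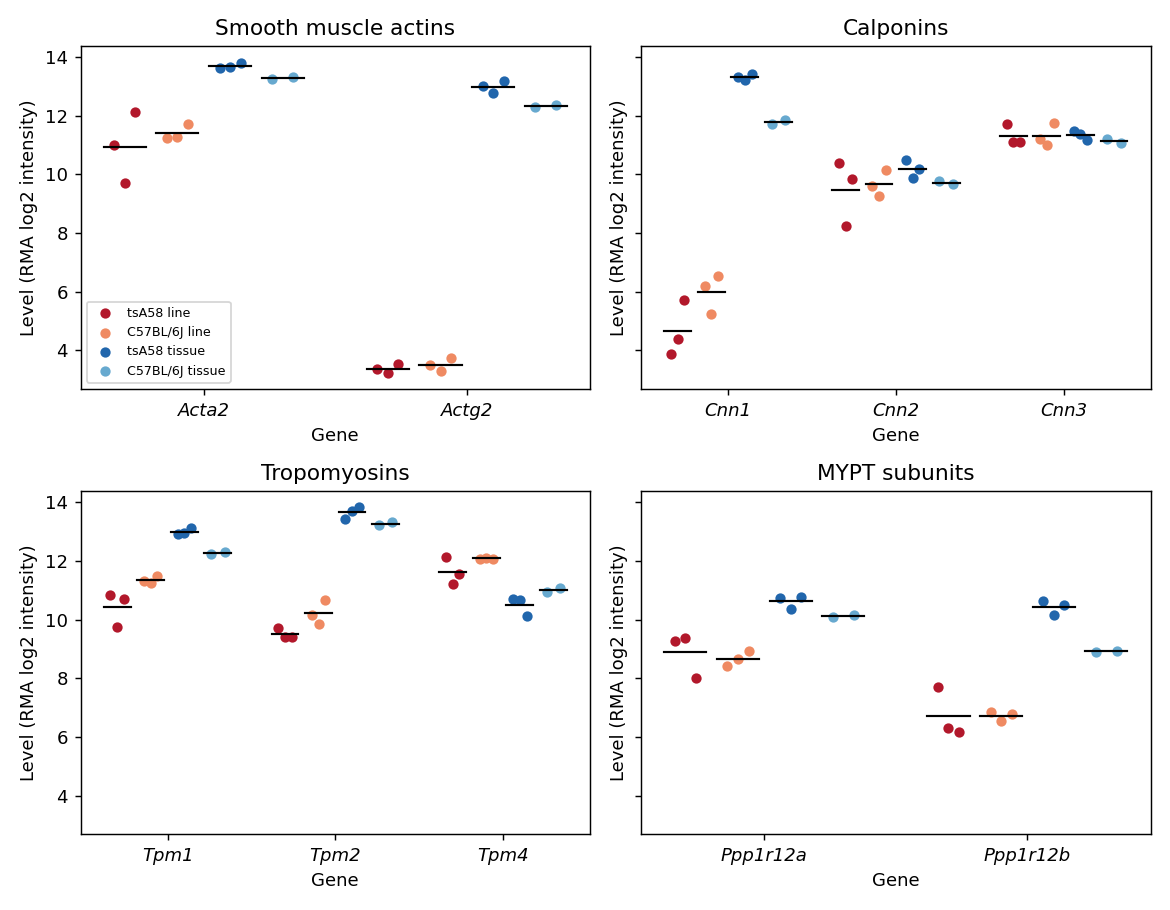
Log2 intensity on each array (points) and group mean (lines) for actins, calponins, tropomyosins and the phosphatase subunits, with the groups of each gene in the order tsA58 line, C57BL/6J line, tsA58 tissue, C57BL/6J tissue. Actg2 and Cnn1 drop to the bottom of the panels in the lines (3.22 to 6.54), Cnn3 lies at 11 to 11.74 in all groups, and Tpm4 is the gene whose line points lie above its tissue points.

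The lines were compared with each other, which asks whether the 2 clones differ in the contractile genes they keep. Between them 3 of the 35 genes were lower in the tsA58 line and 2 were higher (8.57% and 5.71%), where 5.77% of all genes were lower and 8.38% higher, so the shares were near those of all genes. Myl9 was lower by -5.83 ± 0.23 (adjusted p = 4.98e-07), and this call was kept under every alternative tried. Tagln was lower by -2.55 ± 0.81 (adjusted p = 0.0439) and Mylk by -1.66 ± 0.53 (adjusted p = 0.0448). Synm was higher by 1.47 ± 0.41 (adjusted p = 0.0255) and Fhl1 by 1.48 ± 0.42 (adjusted p = 0.0287). Synm lay below the array median on all C57BL/6J line arrays and near it in the tsA58 line (4.02 to 4.94). Its difference is thus close to background, and its second probe set gave 0.62. The calls of Tagln and Mylk each held without tsA58 line replicate 3, at -3.71 and -2.41, and ended when any 1 of the other 5 line arrays was left out, with adjusted p up to 0.121 and 0.142. Without tsA58 line replicate 2 Tagln was at -1.5. The call of Fhl1 ended without replicate 3 of the tsA58 line (0.86) and without any 1 of the C57BL/6J line arrays (adjusted p up to 0.0941), and that of Synm ended in 4 of 6 such repeats (adjusted p up to 0.0932). Without tsA58 line replicate 3 the count of lower genes was 7, and with the actin ratio as a covariate it was 8. Of all 13285 genes, 989 and 1124 were lower under these settings. Centring on the hybridisation controls, which moved the median of all genes by 1.49 here, gave 1 lower and 13 higher. Of all 13285 genes it made 96 lower and 7582 higher. Cnn1 was not called between the lines (-1.33 ± 0.44, adjusted p = 0.0516), and that centring turned it to 0.16.

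The tsA58 line arrays were spread widely. Of the 35 genes, 17 had a range over 1 in the tsA58 line, 1 in the C57BL/6J line, 2 in tsA58 tissue and 1 in C57BL/6J tissue. Of all genes tested, 23.6%, 5.14%, 17.5% and 1.90% had such a range in these groups, so the arrays of the tsA58 line were spread for other genes too. The median range was 0.94 for the tsA58 line, against 0.45 for the C57BL/6J line. Among the 17, replicate 3 was the highest array for 12 and replicate 2 the lowest for 12. Set against the mean of the other arrays of its group, replicate 2 was over 1 lower for 9 of the 35 genes, where 3.30% of all genes were. Those 9 were Mylk, Acta2, Tagln, Cnn2, Tpm1, Smtn, Actn1, Tln1 and Pdlim7. Replicate 3 was over 1 higher for 7 of the 35, where 5.52% of all genes were, and those were Mylk, Acta2, Tagln, Cnn1, Smtn, Ldb3 and Fhl1. It was over 1 lower for 1 of the 35, Ppp1r12a, where 10.4% of all genes were. The largest deviations were those of Tagln, at -3.15 on replicate 2 and 3.47 on replicate 3. The actin control ratio was 0.51, 0.85 and 0.05 on replicates 1, 2 and 3, so it was highest where these genes were lowest. Its part in the spread was not tested. Myh11, Actg2 and Myl9 lay at background on all these arrays.

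**Figure D4:**
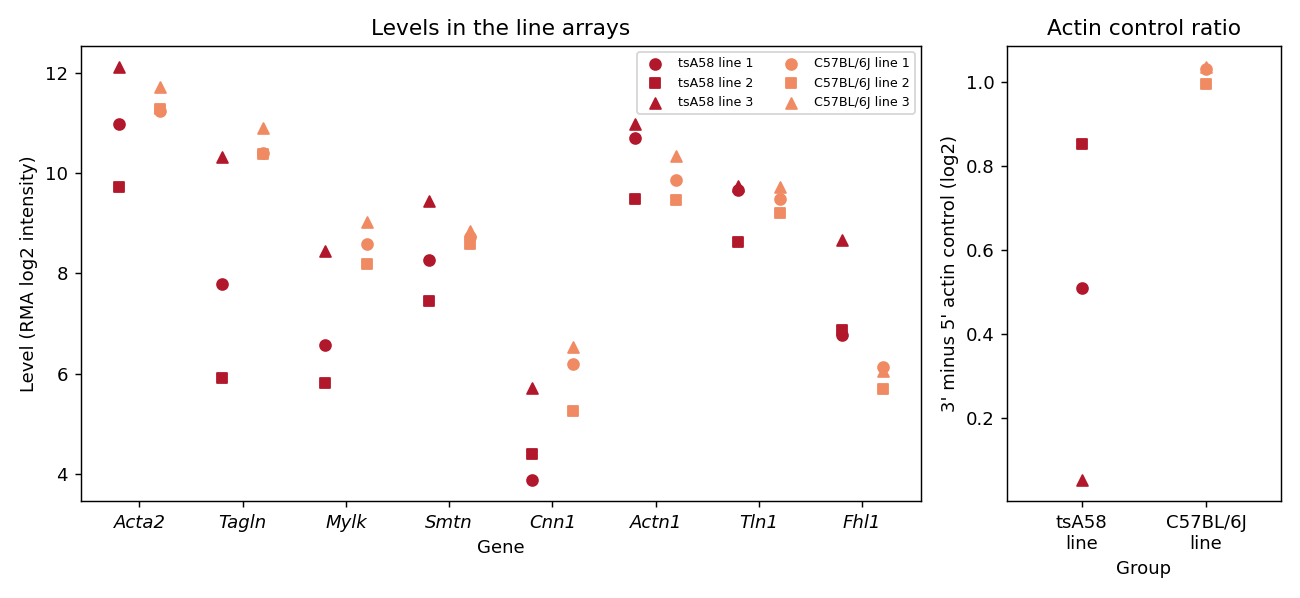
Log2 intensity of 8 genes on the line arrays (left; dark red for tsA58, orange for C57BL/6J, 1 symbol per replicate) and the log2 ratio of the 3′ to the 5′ actin control probe sets on the same arrays (right). In the tsA58 line Tagln runs over 5.90 to 10.32 and Mylk over 5.81 to 8.44, with replicate 2 lowest and replicate 3 highest, and the control ratio runs the other way, at 0.85 on replicate 2 and 0.05 on replicate 3.

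The tissues were compared to see whether the muscle coats of the strains, against which the lines were measured, carried the same levels. They did not: 13 of the 35 genes were higher in tsA58 tissue and 1 was lower (37.1% and 2.86%), where 9.56% of all genes were higher and 3.21% lower. The median difference was 0.74, and that of all genes 0.18. For 25 genes all tsA58 arrays lay above both C57BL/6J arrays, and for 2 below, while 37.9% and 16.4% of all genes did so. The 13 higher genes came from all roles. Smtn led with 2.54 ± 0.44 (adjusted p = 0.00367), and its tsA58 tissue arrays read 11.73 to 12.14, against 9.34 and 9.46 in C57BL/6J. Des was higher by 2.47 ± 0.20 (adjusted p = 0.000144), Ppp1r14a by 2.01 ± 0.18 (adjusted p = 0.000167) and Lmod1 by 1.87 ± 0.29 (adjusted p = 0.00233). Pdlim7 (1.84 ± 0.32), Tln1 (1.75 ± 0.35), Csrp1 (1.41 ± 0.31) and Flna (1.29 ± 0.30) were higher among the plaque genes. Cnn1 (1.54 ± 0.49), Ppp1r12b (1.51 ± 0.39), Myl6 (1.41 ± 0.26), Casq2 (1.31 ± 0.29) and Srf (1.27 ± 0.23) made up the rest.

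Against that direction, Myocd was lower in tsA58 tissue, at 7.17, 5.64 and 7.63, against 8.71 and 8.79 in C57BL/6J tissue, by -1.94 ± 0.46 (adjusted p = 0.0151). Replicate 2 was the lowest of the tsA58 tissue arrays, and the groups did not overlap. Without it the difference was -1.35. By the probe sets used, some muscle genes differed less. Myh11 (0.76 ± 0.21), Myl9 (0.96 ± 0.26), Actg2 (0.65 ± 0.20) and Pdlim3 (0.79 ± 0.19) passed the p threshold (adjusted p = 0.03, 0.0277, 0.0472 and 0.0177) and stayed under 2-fold. The second probe set of Myh11 gave 1.44. Other probe sets of genes not called here went both ways, such as 2.10 and 1.91 for Acta2 and -2.36 for Tpm1.

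These tissue calls rest on 2 C57BL/6J arrays, and the count of higher genes was 7 without replicate 1 and 8 without replicate 2. Of all 13285 genes, 605 and 678 were higher in those repeats. The calls of Ppp1r12b, Cnn1, Flna, Tln1 and Csrp1 ended when either C57BL/6J array was left out, with adjusted p up to 0.215, and that of Casq2 ended without replicate 1 (0.74, adjusted p = 0.109). The call of Myocd also ended without either array (adjusted p = 0.0889 and 0.0965), and its difference turned to 0.19 with hybridisation control centring. Cnn1 was also lost without each of the 3 tsA58 tissue arrays (adjusted p = 0.0872, 0.0743 and 0.111) and in 10 of 15 alternatives in all, the replicate block among them. Ppp1r12b was lost without tsA58 tissue replicate 1 (adjusted p = 0.0549) or 3 (adjusted p = 0.0586) and in 6 of 15 in all. The difference for Ppp1r12b turned to -0.32 with the mean of all its probe sets. Those of Ppp1r14a, Lmod1, Smtn, Des, Pdlim7 and Srf were kept under every alternative. With the actin control ratio as a covariate, 8 genes were higher and 2 lower. Of all 13285 genes, 1657 were higher and 404 lower with that covariate. Centring on the hybridisation controls, whose mean was 8.74 ± 1.10 in tsA58 tissue and 10.86 ± 0.13 in C57BL/6J tissue (SD), moved the median of all genes by 2.13 and made 34 higher and 0 lower. That centring also called 12167 of all 13285 genes higher and 18 lower.

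Because the tissues differed, the line-tissue difference of tsA58 was tested against that of C57BL/6J. This difference of differences was lower for 14 of the 35 genes and higher for 0 (40.0% and 0.00%), where 13.0% of all genes were lower and 7.30% higher. For 9 of the 14, namely Ppp1r14a, Cnn1, Lmod1, Smtn, Des, Tln1, Csrp1, Pdlim7 and Casq2, the tissue level was also called higher in tsA58, and none of the 9 was called between the lines. For the other 5, Myh11, Myl9, Tpm1, Tpm2 and Pdlim3, the tissues were not called. Of the 14, Myh11, Ppp1r14a, Pdlim3 and Casq2 were at background in both lines. For these 4 the value sets one bounded difference against another and does not show that the line-tissue change differed between strains. The other 10 came from the 27 genes not at background in both lines. Among them Lmod1 lay above the median on 1 line array only, C57BL/6J line replicate 3, so its value has the same limit. Myl9 had the largest value, -6.78 ± 0.35 (adjusted p = 1.17e-05), and it was the 1 gene of the 14 also called between the lines. Smtn (-2.88 ± 0.59, adjusted p = 0.0073), Cnn1 (-2.86 ± 0.66, adjusted p = 0.0124) and Des (-2.66 ± 0.27, adjusted p = 0.000317) came next among the called genes. Cnn1 lay below the array median on tsA58 line replicates 1 and 2, so background limits its value in part. Tagln had a value of -3.51 ± 1.21 and was not called (adjusted p = 0.0606). It was -2.46 without tsA58 line replicate 2, and -4.67 and called without replicate 3 (adjusted p = 0.000781). At an unadjusted p below 0.05 in limma, 23 were lower, with Myh11, Ppp1r14a, Pdlim3 and Casq2 among them, and 3 higher. Other genes at background in both lines were not left out of that count. That count was not made for all genes, so it has no share of all genes to be read against. Not called were Myocd, at 1.79 ± 0.61 (adjusted p = 0.0596; 1.2 and called without tsA58 tissue replicate 2), Fhl1, at 1.43 ± 0.63 (adjusted p = 0.129; 0.81 without tsA58 line replicate 3), and Ppp1r12b, at -1.51 ± 0.53 (adjusted p = 0.064). Myocd was at background in both lines, so its value too sets one bounded difference against another. It does not show that the line-tissue change of Myocd differed between strains. The count of lower genes was 7 without C57BL/6J tissue replicate 1 and 18 without tsA58 line replicate 3, and Myl9, Smtn and Des were called under every alternative. Of all 13285 genes, 1000 and 2108 were lower in those repeats. With the mean of all probe sets Tpm1 turned to 0.039 and Ppp1r12b to 0.13. This test shares its arrays with the comparisons above, so it adds no independent evidence to them.

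**Figure D5:**
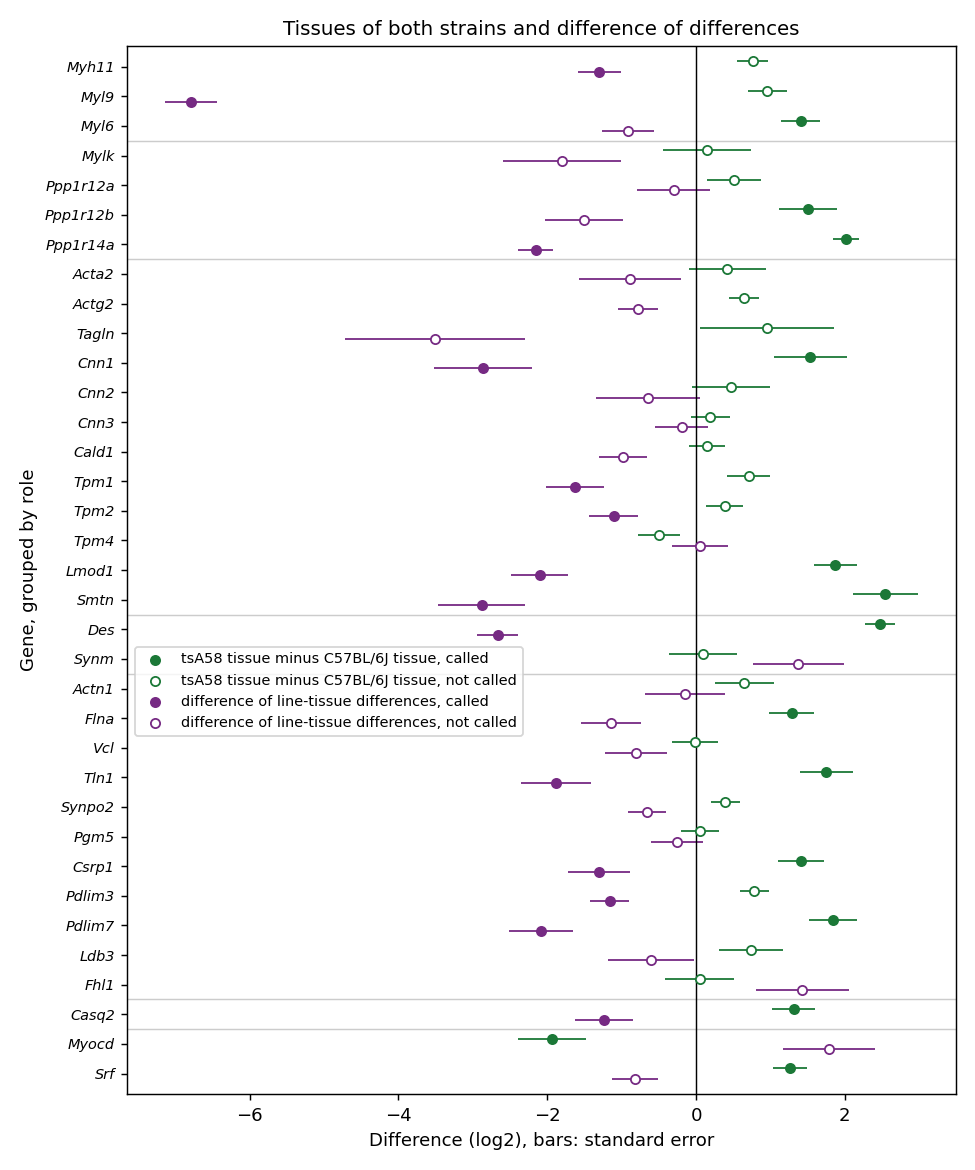
Difference in log2 intensity between tsA58 and C57BL/6J tissue (green) and the tsA58 line-tissue difference minus that of C57BL/6J (purple) for the 35 genes grouped by role, with standard errors and filled points for calls. Most green points lie right of 0 and most purple points left of it, Myl9 stands out at -6.78 in purple, and Myocd lies at -1.94 in green.

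Genes around the apparatus were taken from lists of related pathways. Of 17 tested cofactors and antagonists of serum response factor, 6 were lower and 2 higher in the tsA58 line and 7 were lower and 4 higher in the C57BL/6J line, each against tissue. Barx1, a homeobox factor of the stomach mesenchyme, was lower by -6.28 ± 0.20 and -4.19 ± 0.23, Mef2c, a muscle transcription factor, by -4.49 ± 0.19 and -3.76 ± 0.21, and the Notch target Hey2 by -2.92 ± 0.35 and -3.38 ± 0.39. The line means of Mef2c (3.72 and 4.25) and Hey2 (2.77 and 2.63) lay below the array median, so their differences are bounds. So did the tsA58 line mean of Barx1 (4.19), and its tsA58 difference is a bound. The coactivators that couple actin to serum response factor were called between tissues in opposite directions, Mrtfb at -1.23 ± 0.27 and Mrtfa at 1.00 ± 0.25. Between the lines the GATA factor Gata6 (-1.45 ± 0.37) and the homeobox factor Prrx1 (-1.26 ± 0.24) were lower in the tsA58 line. Both line means of Prrx1 (3.31 and 4.57) lay below the array median, so its difference cannot be told from background.

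Of 15 genes of RhoA signalling and calcium sensitisation, 4 were lower and 0 higher in the tsA58 line. At an unadjusted p below 0.05 in limma these counts were 9 and 0. In the C57BL/6J line 4 were lower and 3 higher (7 and 4 at that unadjusted p). Unadjusted counts were not made for all genes, so those given here and below have no share of all genes to be read against. Prkg1, the cGMP-dependent kinase that relaxes smooth muscle, was lower by -4.40 ± 0.37 and -4.06 ± 0.41. Dapk3, a kinase that acts on the myosin phosphatase and the light chain, was higher by 2.65 ± 0.31 in the C57BL/6J line and was higher in tsA58 than in C57BL/6J tissue by 1.5 ± 0.31. Of 11 genes of the dystrophin complex and caveolae, 7 and 5 were lower and 0 higher (8 and 6 lower and 0 higher at an unadjusted p below 0.05), with dystrophin itself (Dmd) at -4.06 ± 0.52 and -3.60 ± 0.58. Of 18 other smooth muscle markers, 15 were lower in each line, and 1 was higher, in C57BL/6J (medians -3.91 and -2.60). Among them, the calmodulin-binding peptide gene Pcp4 was lower by -7.95 ± 0.39 and -7.50 ± 0.44 and phospholamban (Pln), which restrains the calcium pump of the store, by -7.69 ± 0.18 and -5.90 ± 0.20. Of the 18, 6 lay at or below the array median on all tsA58 line arrays and 7 on all C57BL/6J line arrays. Pcp4 had line means of 3.98 and 3.92, below that median, so its differences are bounds. The tsA58 line mean of Pln, 4.19, lay below it too, so its tsA58 difference is a bound. Line means of Prkg1 (4.71 and 4.99) and Dmd (4.75 and 4.67) lay near that median. In the tissue comparison 9 of these 18 markers were higher in tsA58 and 0 lower, with the potassium channel subunit Kcnmb1 at 2.29 ± 0.27.

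The non-muscle counterparts of the contractile proteins, such as cytoplasmic actins, non-muscle myosins and their partners, were split in direction. Of 20 tested, 3 were lower and 3 higher in the tsA58 line and 5 were lower and 4 higher in the C57BL/6J line, with medians of 0.22 and 0.35. Csrp2, a LIM protein of developing smooth muscle, was lower in both (-4.25 ± 0.47 and -3.41 ± 0.53). Pdlim4, a PDZ and LIM protein, was lower by -5.27 ± 0.27 in the tsA58 line, and was lower there than in the C57BL/6J line by -3.02 ± 0.27. The tsA58 line mean of Pdlim4, 3.98, lay below the array median, so both differences are bounds. In the C57BL/6J line filamin C (Flnc) was higher by 2.46 ± 0.38 and zyxin (Zyx) by 1.98 ± 0.35, and Flnc was lower in the tsA58 line than in the C57BL/6J line by -1.78 ± 0.34.

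Other cells of the wall also add RNA to the tissue samples, and their markers moved with the line-tissue differences. All 11 enteric neuron genes were lower in both lines, and of 13 gastric epithelium genes 11 were lower and 1 higher in the tsA58 line and 10 lower and 0 higher in the C57BL/6J line. Of the neuron genes, 6 lay at or below the array median on all tsA58 line arrays and 7 on all C57BL/6J line arrays. Genes at that level in both lines passed the filter through tissue arrays and had to be lower, in this list and the others. Of 8 mature ICC genes, 6 were lower in each line and 4 lay at or below the median on all arrays of each line. Kit, the receptor that defines mature ICC, was lower by -4.36 ± 0.33 in tsA58 and by -3.55 ± 0.37 in C57BL/6J. Its line means of 3.51 and 3.60 lay below the array median, so these differences are bounds. Of 10 pericyte and vascular muscle genes, 7 and 6 were lower, with Rgs5, a regulator of G protein signalling, at -8.10 ± 0.64 and -7.38 ± 0.71. The line means of Rgs5, 3.86 and 2.93, lay below the array median too. The log2 of the summed level of the pericyte list was 9.03 to 9.22 in the tsA58 line, 8.54 to 8.84 in the C57BL/6J line, 12.56 to 13.06 in tsA58 tissue and 11.85 to 11.87 in C57BL/6J tissue. The enteric neuron list had summed levels of 7.57 to 7.92 in tsA58 and 9.15 to 9.46 in C57BL/6J line arrays, and the epithelium list 10.46 to 12.04 and 10.99 to 11.89. Of 9 skeletal muscle genes 4 and 3 were lower, of 7 cardiac genes 1 and 2, and of 8 pancreas genes 3 and 3, with 0 higher. How much of the smooth muscle signal of the tissues came from vessels was not tested.

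Between the tissues, the epithelium list had 2 genes lower and 0 higher in tsA58, with summed log2 levels of 14.56 to 16.16, against 15.54 to 15.57 in C57BL/6J tissue. The enteric neuron list had 0 of 11 called (2 higher at an unadjusted p below 0.05 in limma), at 12.94 to 13.69, against 12.86 to 13.00, and the pancreas list had 0 of 8 called (0 at an unadjusted p below 0.05), at 9.12 to 14.12, against 10.54 to 14.47. The skeletal muscle list had 1 of 9 higher, the creatine kinase gene Ckm (2.08 ± 0.32), at 10.51 to 11.58, against 9.65 to 9.69, with 8 of 15 genes at or below the array median on all arrays of each tissue. The cardiac list had 1 of 7 lower, the atrial light chain Myl7 (-3.12 ± 0.79), at 8.77 to 9.22, against 9.06 to 9.33. Of the ICC list 3 of 8 were higher, at 11.58 to 11.99, against 11.80 to 11.98, and of the pericyte list 1 of 10, Mcam (1.83 ± 0.26), an adhesion molecule that also stands in the list of other smooth muscle markers. The part of these cells in the differences between the tissues was not tested.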

How the data were processed

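Gene expression was measured on 11 Affymetrix whole-genome mouse arrays, from about 50 ng of RNA amplified in 2 rounds, primed with oligo(dT) and then with random primers. The authors deposited log2 intensities, 1 value per probe set, made by RMA per the submitters' processing notes, which give no version. RMA corrects background and normalises between arrays, so a shift of all genes is removed. The number of arrays limits the precision.

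Of 45101 probe sets, 34945 had 1 gene symbol and 932 several. Those with several, and 64 controls, were left out. Group means were fitted with limma 3.58.1 in R 4.3.3 (7 residual and 3.49 prior degrees of freedom) without a replicate block, and p-values were adjusted by Benjamini-Hochberg over the 13285 genes tested. The fit was tested on simulated data. Replicate numbers were read as names: only 1 of 10 same-numbered pairs correlated above 0.1. All 35 genes are named, and of each other list at most the 3 called genes with the largest change per comparison. The members and lists were chosen with earlier results of these data known. Alternatives were another normalisation, filter, probe set rule, variance prior, set of arrays, array weights, the actin ratio as a covariate, a replicate block and leaving out each array. Ratios, promoters and figures used Python 3.11.15 with numpy 2.4.6, pandas 2.3.3 and matplotlib 3.10.9.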

Additional observations from a re-analysis of the deposited data

Results flagged for a closer look

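For 14 of the 35 genes the line-tissue difference of tsA58 was called lower than that of C57BL/6J in the test of the difference itself. Among the myosin and phosphatase genes the difference of differences was -1.30 for Myh11, -6.78 for Myl9 and -2.15 for Ppp1r14a. Among the thin filament genes it was -2.86 for Cnn1, -1.63 for Tpm1, -1.11 for Tpm2, -2.10 for Lmod1 and -2.88 for Smtn. Des had -2.66. In the dense bodies and plaques it was -1.88 for Tln1, -1.31 for Csrp1, -1.16 for Pdlim3 and -2.09 for Pdlim7, and the store protein gene Casq2 had -1.23. Myh11, Ppp1r14a, Pdlim3 and Casq2 were at background in both lines, so their values set one bounded difference against another and do not show that the change differed between strains. The value of Lmod1 has the same limit, since it lay above the median on C57BL/6J line replicate 3 alone among the line arrays. That of Cnn1 is limited in part, since Cnn1 lay below the median on tsA58 line replicates 1 and 2. Leaving out 1 array ended the call of Casq2 in 9 of 11 repeats, of Csrp1 in 9, of Tpm2 in 7, of Tpm1 and Tln1 without either C57BL/6J tissue array, and of Cnn1 and Pdlim3 without C57BL/6J tissue replicate 1. The actin control ratio and the level of the hybridisation controls differed between the strains too, and their part in these values cannot be told apart from strain.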

How the results depend on the processing

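Precision rests on 2 or 3 arrays a group, and levels near the array median give only a bound. Of 1811 recomputed gene values, 1601 kept their direction and their side of the threshold, 145 lost the call, 35 gained one and 30 turned direction. Of the calls, 23 of 31 in the tsA58 line against tissue, 15 of 23 in the C57BL/6J line against tissue, 1 of 5 between lines, 6 of 14 between tissues and 3 of 14 in the difference of differences held in every setting. The cause of the changes below was not tested.

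Centring on the hybridisation controls gave 3 higher genes in the C57BL/6J line against tissue, 1 lower and 13 higher between lines, 0 lower and 34 higher between tissues and 5 lower in the difference of differences. In the last, 450 of all 13285 genes were lower, and the other counts over all genes are given above. The mean of all probe sets gave 2 higher genes in the C57BL/6J line against tissue and 1 higher between lines. Of the 12482 genes tested that way, 1972 and 907 were higher. Between lines, no filter gave 1 lower gene, the groups compared alone 1 lower and 1 higher, quantile normalisation 1 higher and array weights 1 higher. Over all genes, no filter gave 743 lower of 18193. Of 13285 genes, the groups compared alone gave 697 lower and 1016 higher, quantile normalisation 1014 higher and array weights 1777 higher. The actin ratio as a covariate gave 8 lower between lines, 2 lower and 8 higher between tissues and 1 higher in the difference of differences. In the last, 1288 of all 13285 genes were higher. The groups compared alone gave 0 lower between tissues, where 300 of all 13285 genes were lower. In the difference of differences, quantile normalisation gave 1 higher gene, array weights 2 and the replicate block 1. Of all 13285 genes, 1151, 1892 and 749 were higher under these settings. The replicate block moved no other count by over 1.5 times, with 24 lower genes in the C57BL/6J line against tissue, and 2 of 6 arrays correlated best with the array of their own number. Leaving out 1 array gave 0 to 1 higher genes in each line against tissue, 1 to 7 lower and 0 to 1 higher between lines, 0 to 1 lower and 7 to 12 higher between tissues, and 7 to 18 lower and 0 to 2 higher in the difference of differences.

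Direction turned as follows. With hybridisation control centring, the C57BL/6J line minus tissue became 0.66 for Myl6, 1.18 for Cnn2, 1.2 for Cald1, 0.30 for Tpm1, 0.55 for Smtn, 0.64 for Actn1, 0.46 for Flna, 0.89 for Pdlim7 and 0.21 for Srf. In tsA58 it became 0.57 for Cnn3 and 0.37 for Vcl, between lines 0.16 for Cnn1 and between tissues 0.19 for Myocd. With the mean of all probe sets, the C57BL/6J line minus tissue became 0.10 for Actn1, -0.71 for Tln1 and 0.16 for Pdlim7, the tissues differed by -0.32 for Ppp1r12b, the difference of differences was 0.13 for Ppp1r12b and 0.039 for Tpm1, and the ratio of Ppp1r12b to Ppp1r12a moved by 0.23. Cnn2 in C57BL/6J became 0.090 with the actin covariate, and ran from -0.30 to 0.16 when 1 array was left out, with 0.16 without line replicate 2 and 0.0025 without tissue replicate 1. In the same way Cnn3 ran from -0.045 (without line replicate 3) to 0.32 in C57BL/6J, Cald1 from -0.088 to 0.020 (without tissue replicate 2) in C57BL/6J, Cnn3 from -0.23 to 0.083 in tsA58 and Vcl from -0.43 to 0.091 (without line replicate 2) in tsA58. In tsA58, Cnn3 also became 0.11 after quantile normalisation and 0.33 with array weights, and turned to 0.083, 0.077 and 0.041 without line replicate 2, line replicate 3 and tissue replicate 1.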
